A study of Homo sapiens with 32 samples.

Results

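The immunoproteasome and peptide-trimming genes are 10 of the 60107 genes in the count tables, found by symbol. They are the interferon-inducible catalytic subunits PSMB8, PSMB9 and PSMB10, their constitutive partners PSMB5, PSMB6 and PSMB7, the PA28 activator subunits PSME1 and PSME2, and the aminopeptidases ERAP1 and ERAP2. All 10 were among the 12406 genes tested, which had a mean deposited count of at least 10. They were measured in THP-1, a human monocytic cell line, by QuantSeq 3′ mRNA sequencing, which samples the 3′ end of messages, a count per molecule end rather than per base of length. The 32 libraries form 8 groups of 4. KO cells lack ATP-citrate lyase (ACLY), the enzyme that makes acetyl-CoA from citrate. WT, HA and SA cells are the same knockout cells after lentiviral transduction, under an EF promoter with puromycin selection, of wild type ACLY, of the catalytically inactive H760A mutant or of the S455A mutant that cannot be phosphorylated at that serine. Whether KO cells received a vector is not stated in the sources used here. Each genotype is 1 line, so p-values measure the spread between cultures or libraries of that line, and other differences between the lines cannot be told apart from the genotype. Each line was left unstimulated or received LPS, lipopolysaccharide from the outer membrane of bacteria and a monocyte activator, at 100 ng/ml for 3 hours per the labels (the methods also give another dose).

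The proteasome cuts proteins into peptides with 3 pairs of catalytic subunits. In cells exposed to interferon, newly made particles take up PSMB8 in place of PSMB5, PSMB9 in place of PSMB6 and PSMB10 in place of PSMB7, and this immunoproteasome produces many of the peptides shown on MHC class I molecules. PSME1 and PSME2 together form the PA28 ring that caps the particle, the TAP1-TAP2 transporter carries peptides into the endoplasmic reticulum, and ERAP1 and ERAP2 trim them there. IRF1 and NLRC5 are known activators of this gene set, and interferon regulatory factors bind repeated GAAA motifs.

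PSMB8 and PSMB9 lie side by side in the class II region of the major histocompatibility complex (GRCh38, GENCODE release 44), PSMB8 at chr6:32840717-32844679 on the minus strand and PSMB9 at chr6:32844136-32859851 on the plus strand. PSMB9 shares exon sequence with the antisense gene PSMB8-AS1 on its own strand and with PSMB8 on the other. The strand setting of the authors' counting is not given in the sources used here, so reads of these neighbours may not be fully separated. PSME1 (chr14:24136163-24138967, plus strand) and PSME2 (chr14:24143362-24147570, minus strand) are also neighbours. PSMB5 lies at chr14:23016543-23035230, PSMB10 at chr16:67934506-67936864, PSMB6 at chr17:4796144-4798502, PSMB7 at chr9:124353465-124415444, ERAP1 at chr5:96760810-96808100 and ERAP2 at chr5:96875986-96919703. Reads on PSME2 pseudogenes were 0.186% of those on PSME2 and none were counted on the PSMB7 pseudogene, both over all libraries.

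Start-site windows from RefSeq (GRCh38.p14), 250 bases before to 50 bases after the start, were found for 8 of the 10 genes, with no entry for PSMB6 and PSMB7. They were searched on both strands for GAAA, then any 2 bases, then GAAA (the core of an interferon-stimulated response element) and for TTC, then any 3 bases, then GAA (the core of a gamma-activated sequence). These genes have 12 windows, since several have more than 1 start. The GAAA pair was present in 6 of the 12, each in a different gene, and in 3.57% of all 35116 windows, and it was in neither window of PSMB5 nor in that of PSMB9. The stretches are shown because they carry this pair near the start, in genes that were called between lines and in genes that were not. Each is given 5′ to 3′ on the gene's own strand, with the match in capitals (the GAAA pair, or its complement where it starts with T).

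PSMB8, second start, chr6:32844032-32844061, minus strand: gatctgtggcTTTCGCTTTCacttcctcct
PSMB10, chr16:67936852-67936881, minus strand: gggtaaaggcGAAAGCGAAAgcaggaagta
PSME1, chr14:24136189-24136218, plus strand: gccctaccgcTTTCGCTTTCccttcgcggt
PSME2, chr14:24146619-24146648, minus strand: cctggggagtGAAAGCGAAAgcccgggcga
ERAP1, first start, chr5:96807924-96807953, minus strand: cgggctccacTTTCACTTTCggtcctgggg
ERAP2, second start, chr5:96876460-96876489, plus strand: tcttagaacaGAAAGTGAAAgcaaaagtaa
TAP1, first start, chr6:32853816-32853845, minus strand: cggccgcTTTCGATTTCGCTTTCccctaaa

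In PSMB8, PSMB10, PSME1 and PSME2 the match was the same word, GAAAGCGAAA, on one strand or the other. It began 21 bases before the start in PSMB10 and 28 bases before it in PSME2, it ended 6 bases into the transcript in PSMB8, and it began at base 6 of the transcript in PSME1. TAP1 is transcribed away from PSMB9, their windows share 13 bases, and the pair of overlapping matches in the TAP1 window ends 354 bases from the PSMB9 start, outside the PSMB9 window. The TTC and GAA motif occurs in 7.66% of all windows. It was found in the second window of PSMB8, shown here, in the second window of TAP1 and at 2 places in the second window of PSMB5:
PSMB8, second start, chr6:32844094-32844123, minus strand: taactgtccttTTCTCGGAAaaggcagggg
A match is a stretch of letters and not a measured binding site.

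The libraries held 6504099 to 14750815 reads on genes. Levels are given as normalized counts, which are recovered reads divided by size factors computed jointly over the 32 libraries. Libraries of a group differed along 1 main direction that held 52.1% of the within-group variance, computed without the 10 genes, and 3716 of the 12406 genes correlated with it beyond 0.8 in either sense. Replicate 1 of SA after LPS lay farthest along it, with a score of -3.61 where the other 31 libraries ran from -1.70 to 1.12. The mean score was 0.39 in WT, 0.10 in KO, -0.75 in HA and -0.02 in SA, and 0.41, 0.44, -0.29 and -0.29 in the same lines after LPS. What the direction reflects was not tested. All 10 monocyte markers examined were detected, while of 9 markers of other cell types PECAM1 alone passed the filter and the T cell gene CD3E was at 0 in every library. The summed level of the monocyte markers, led by lysozyme (LYZ), was 17090 to 30670 in KO and 15342 to 22577 in HA against 7415 to 9068 in WT, and the summed level of the 9 other markers, led by PECAM1, was 3976 to 6173 in KO and 4268 to 6087 in HA against 2494 to 2995 in WT. ACLY 3′ counts did not separate the knockout (68.1 to 108 in KO, 92.0 to 119 in WT), and whether they lie in the edited stretch is not known here, so they check nothing.

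**Figure D1:**
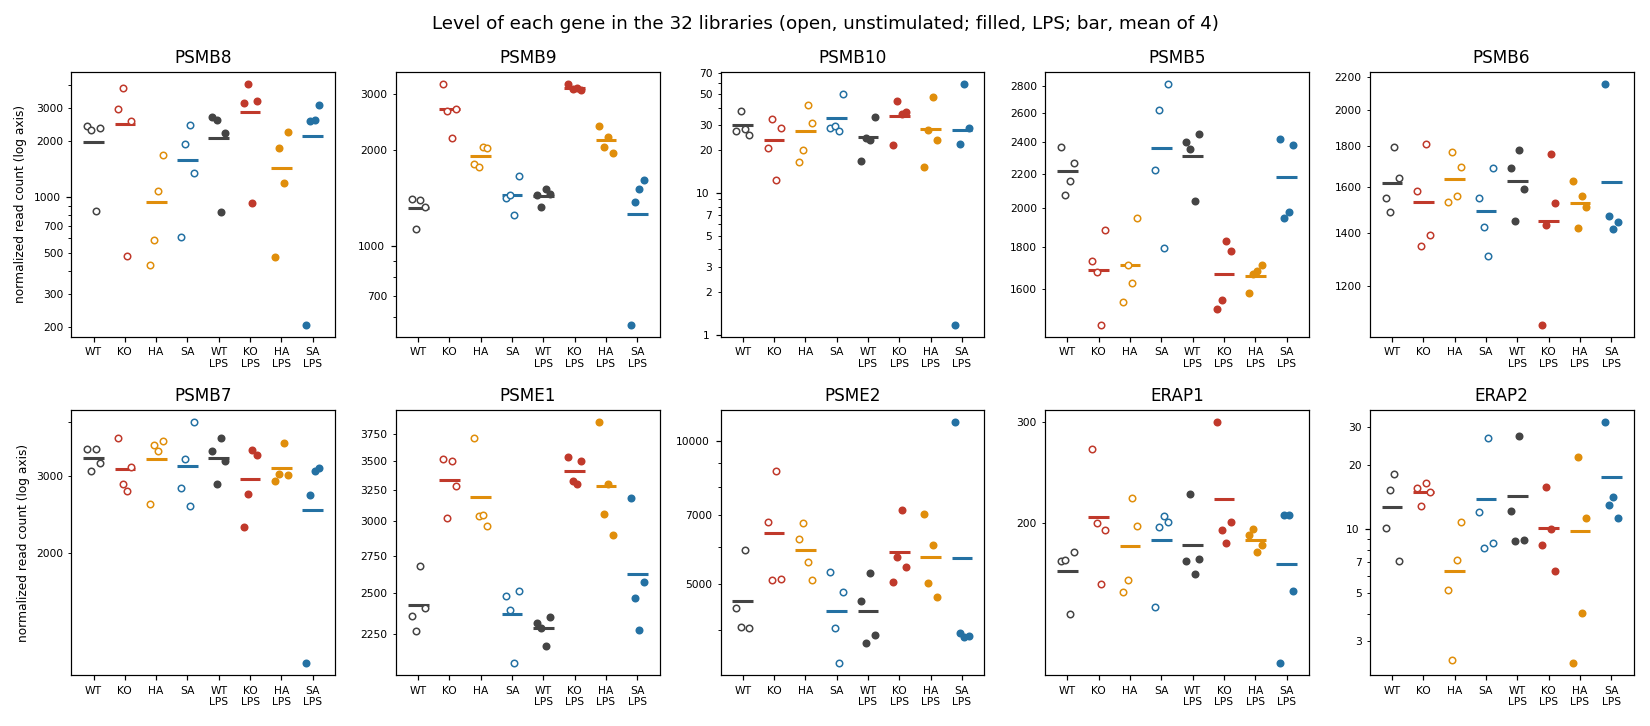
Normalized read count (log axis) of each of the 10 genes in the 8 groups, with 1 point per library, open for unstimulated and filled for LPS, and a bar at the mean of 4. PSMB9 and PSME1 are higher in all KO and HA libraries than in all WT libraries, while PSMB8 spreads widely in every group.

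PSMB9 was higher in KO than in WT cells with and without LPS. This subunit takes the place of PSMB6 and removes the caspase-like activity of the particle. Its normalized counts were 1412, 1130, 1395 and 1326 in unstimulated WT cells and 3233, 2662, 2181 and 2692 in KO cells. After LPS they were 1448, 1329, 1512 and 1462 in WT and 3236, 3125, 3142 and 3095 in KO. All KO libraries were above all WT libraries in both conditions, and the KO libraries with LPS lay close together. The difference was 2.03-fold without LPS (log2 fold change 1.02 ± 0.20 SE, adjusted p = 9.62e-04, limma) and 2.19-fold with LPS (log2 fold change 1.13 ± 0.20, adjusted p = 2.46e-04, limma). In bulk cultures, more cells with the transcript and more transcript per cell cannot be told apart.

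HA cells stood between WT and KO for PSMB9. Their counts were 1815, 1771, 2050 and 2036 without LPS and 2386, 2055, 2202 and 1967 with LPS. Every HA library was thus above every WT library and below every KO library of the same treatment. The share of all genes whose KO and HA libraries do not overlap was not computed, and ERAP2 was also higher in all KO than in all HA libraries without LPS. Neither step passed the limit of 0.01. The spread behind these tests is shared by all 32 libraries, among them replicate 1 of SA after LPS, which is low for PSMB9. Fits of only the groups compared did not call either step, and a fit without that library alone was not examined for them. For KO against HA these fits called 0 of all 12406 genes in both conditions, so they cannot decide that step. For HA against WT they called 196 genes without LPS and 133 with LPS. HA was 1.46-fold above WT without LPS (adjusted p = 8.99e-02, limma) and 1.49-fold above it with LPS (adjusted p = 1.02e-01), and KO was 1.39-fold and 1.47-fold above HA (adjusted p = 4.11e-01 and 2.80e-01). SA cells had 1415, 1448, 1256 and 1662 counts without LPS, overlapping WT, with a log2 difference of 0.13 and a 95% interval from -0.27 to 0.54. With LPS the SA counts were 567.1, 1373, 1517 and 1612, and the low value is replicate 1, the library farthest along the shared direction. The log2 difference of SA from WT after LPS was -0.29 with that library and 0.06 without it. Among the 8 group means in order, the only neighbouring pair whose libraries did not overlap was unstimulated SA below unstimulated HA.

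PSME1, an alpha chain of the PA28 ring, was higher in every KO and HA library than in any WT library of the same treatment. It was at 2358, 2268, 2677 and 2403 in WT, at 3519, 3022, 3496 and 3284 in KO and at 3709, 3041, 3049 and 2968 in HA, all unstimulated. After LPS it was at 2313, 2287, 2185 and 2353 in WT, at 3536, 3321, 3296 and 3502 in KO and at 3863, 3055, 3299 and 2900 in HA. The highest HA value was in replicate 1 in both conditions. The rise in KO was 1.37-fold (log2 fold change 0.46 ± 0.11, adjusted p = 9.20e-03, limma) and with LPS 1.49-fold (0.58 ± 0.11, adjusted p = 6.86e-04). In HA it was 1.43-fold with LPS (0.51 ± 0.11, adjusted p = 4.26e-03, limma), and without LPS the value was 1.31-fold and did not pass (adjusted p = 2.81e-02). The KO call without LPS and the HA call with LPS were each kept in 9 of 18 alternatives, and 6 of the 9 losses in each case came from leaving out a single library. SA was at 2479, 2395, 2091 and 2513, a log2 difference of -0.04 from WT with an interval from -0.26 to 0.19. After LPS SA was at 3185, 2466, 2272 and 2568, a difference of 0.19 with an interval from -0.04 to 0.41, and replicate 1 lay within the HA range.

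PSME2, the partner of PSME1 in the PA28 ring, had a fold change of similar size with a wider spread. Its counts were 4458, 4064, 5895 and 4045 in WT and 6767, 5113, 8669 and 5144 in KO, and after LPS 4606, 3758, 5276 and 3903 in WT and 5067, 5719, 7179 and 5434 in KO. The groups overlapped. The value was 1.37-fold without LPS and 1.33-fold with LPS, and neither passed (adjusted p = 4.22e-01 and 4.27e-01, limma). Replicate numbers paired KO with WT libraries, and replicate 3 was the highest of its group in all 4 of these groups. Under a limma fit of the compared groups with a replicate block, PSME2 passed without LPS (adjusted p = 7.51e-03) and with LPS (adjusted p = 7.89e-03). Of all 12406 genes, 723 and 1333 were called in those fits, beside 360 and 430 in the main fit. PSME2 did not pass in the blocked fit of all groups (adjusted p = 3.05e-01 and 3.22e-01). That fit puts the same replicate effect on every line, although the numbers did not pair HA or SA with WT libraries. In SA after LPS the counts were 10982, 3950, 3883 and 3900, the first in replicate 1.

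In KO against WT, 2 of the 10 genes were called higher and none lower in both conditions, PSMB9 and PSME1 each time. Over all genes tested, 2.90% were called without LPS, 1.80% higher, and 3.47% with LPS, 2.14% higher. All 4 KO libraries were above all 4 WT libraries for the same 2 genes and below them for PSMB5 (background 5.90% higher and 6.13% lower, and with LPS 6.73% and 7.21%). In HA against WT no gene was called without LPS by limma or by limma-voom (background 2.52% called). At an unadjusted p under 0.05 in limma there were 3 of the 10 genes, beside 3045 of all 12406. With LPS 1 gene, PSME1, was called higher (background 2.02% called, 1.16% higher). Libraries of HA and WT did not overlap for PSMB9 and PSME1, which were higher, and for PSMB5, which was lower (background 9.00% and 8.56%, with LPS 7.09% and 6.38%). In SA against WT no gene was called by either tool (background 0% called in both conditions). At an unadjusted p under 0.05 in limma there were 0 and 1 of the 10 genes, beside 445 and 646 of all 12406. None of the 10 had all SA libraries above or below the WT libraries (background 2.37% above and 1.85% below, with LPS 1.27% and 1.35%).

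**Figure D2:**
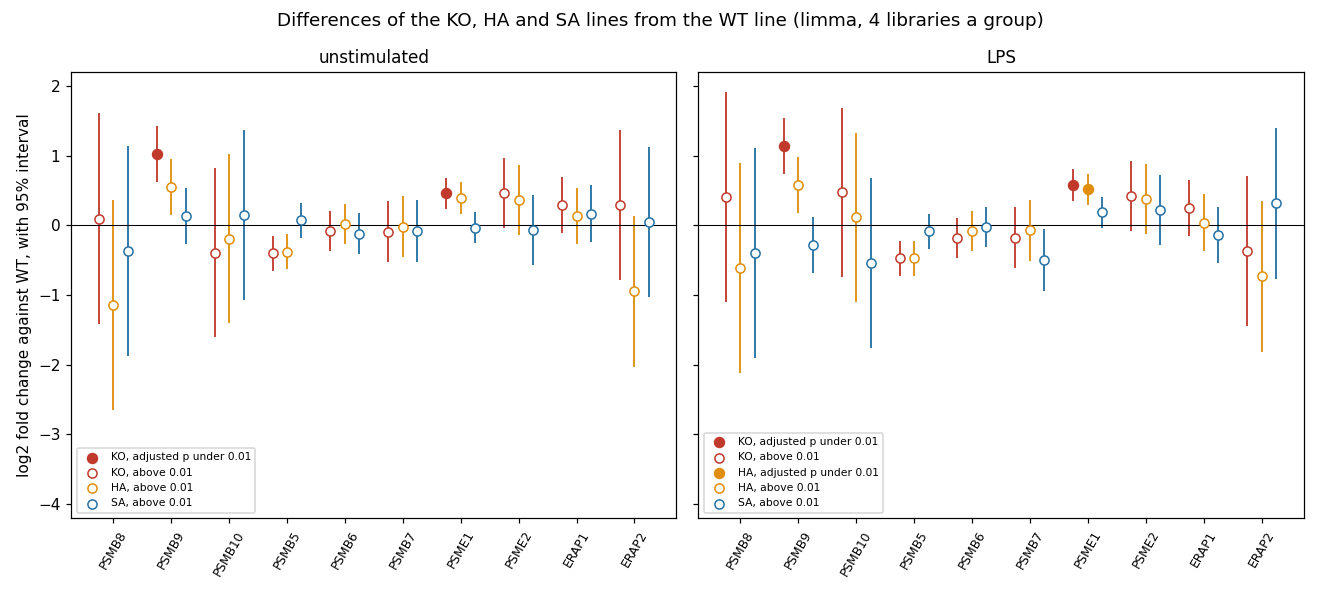
Log2 fold change of KO, HA and SA against WT with its 95% interval for the 10 genes, unstimulated on the left and with LPS on the right. Filled points passed an adjusted p of 0.01, and the interval of PSMB8 spans 0 in every comparison shown.

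PSMB8, which takes the place of PSMB5, was called in no comparison. It was at 2417, 2309, 837.1 and 2346 in WT, at 2971, 3866, 482.4 and 2572 in KO, at 432, 589.5, 1078 and 1685 in HA and at 611, 1925, 2453 and 1347 in SA. After LPS the counts were 2710, 2615, 831.2 and 2209 in WT, 3223, 4065, 933.7 and 3274 in KO, 476.4, 1842, 1189 and 2247 in HA and 205.5, 2561, 2613 and 3113 in SA. The highest library exceeded the lowest by a wide margin in every group, and all neighbouring groups overlapped. Within groups PSMB8 moved with the shared library direction (r = 0.988 over 32 libraries, taken after removing group means), and its within-group SD was 1.12 on the log2 scale against 0.28 for PSMB9. TAP2 and TAP1, its neighbours on chromosome 6, had r = 0.972 and 0.944. The interval for PSMB8 in KO against WT ran from -1.41 to 1.60 without LPS and from -1.10 to 1.91 with LPS, wide enough to hold the difference seen for PSMB9. By replicate number, PSMB8 was higher in KO than in WT in 3 of 4 pairs without LPS and in 4 of 4 with LPS. With a replicate block in a fit of the compared groups its adjusted p was 7.81e-01 and 1.26e-02 (limma). In the blocked fit of all groups, where the numbers do not pair HA or SA with WT, it was 9.73e-01 and 8.47e-01.

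The other genes differed in how they lay along that direction. PSME2 ran against it (r = -0.948), as did PSMB6 (r = -0.769) and PSME1 (r = -0.712), while PSMB10 (r = 0.713), ERAP1 (r = 0.695), PSMB9 (r = 0.619) and PSMB7 (r = 0.520) ran with it, and PSMB5 (r = -0.011) and ERAP2 (r = -0.085) did not follow it. These values share the same libraries and 1 extreme library, so they describe these data only.

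**Figure D3:**
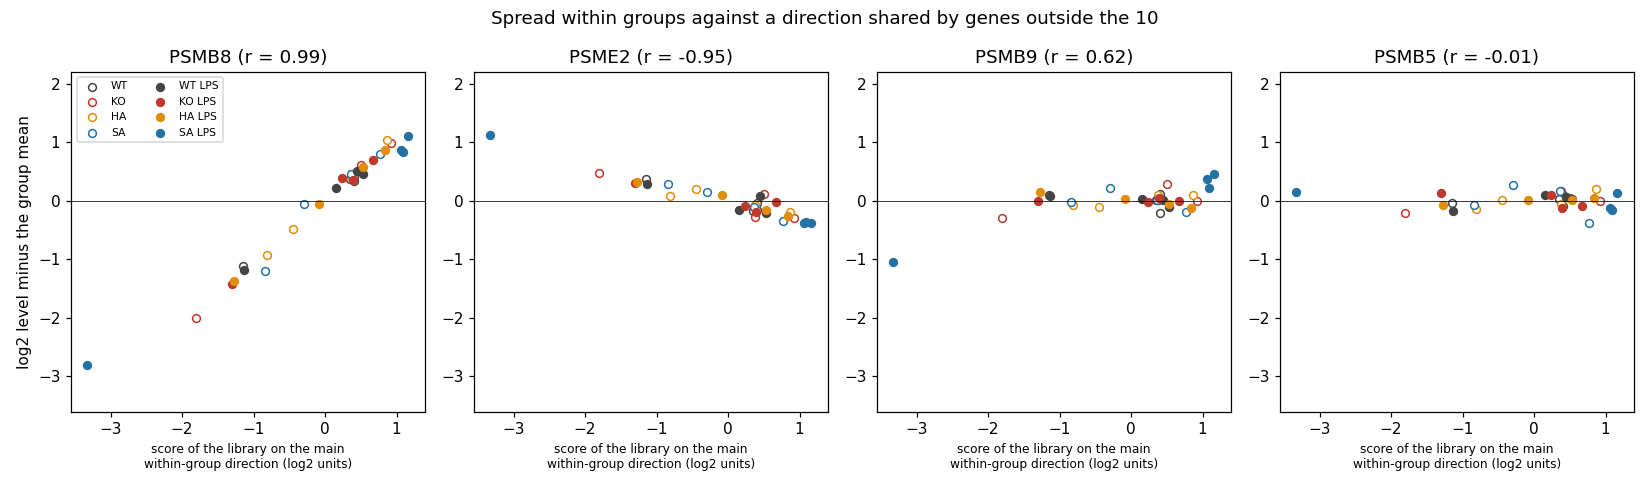
Log2 level minus the group mean for PSMB8, PSME2, PSMB9 and PSMB5 (vertical axis) against the score of each library on the main within-group direction (horizontal axis, log2 units), with 1 point per library. PSMB8 rises along the whole direction (r = 0.99) and PSME2 falls (r = -0.95), while PSMB9 departs mainly in the SA library with LPS at the far left.

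None of the constitutive partners was called higher. PSMB5, the chymotrypsin-like subunit, was at 2368, 2074, 2158 and 2269 in WT, at 1732, 1678, 1451 and 1884 in KO and at 1546, 1710, 1630 and 1949 in HA. After LPS it was at 2398, 2353, 2043 and 2458 in WT, at 1517, 1554, 1827 and 1778 in KO and at 1583, 1670, 1682 and 1710 in HA. All KO and HA libraries were below all WT libraries of their treatment. The KO values were 0.758-fold and 0.721-fold of WT and the HA values 0.769-fold and 0.720-fold, none past the limit (adjusted p = 5.93e-02, 1.62e-02, 5.90e-02 and 2.36e-02, limma). With the replicate block, KO against WT after LPS passed for PSMB5 in the fit of all groups (adjusted p = 5.14e-03, limma). It also passed in that of the compared groups (adjusted p = 5.08e-03, limma). This brings the genes called to 3 in the first fit and, with PSME2, to 4 in the second. Of all 12406 genes, these 2 fits called 554 and 1333, beside 430 without the block. PSMB6 ranged from 1072 to 2157 and PSMB7 from 1119 to 3988 over all libraries. The log2 differences of KO and HA from WT lay between -0.19 and 0.02 for PSMB6 and between -0.18 and -0.02 for PSMB7. The highest PSMB6 and the lowest PSMB7 value were both in replicate 1 of SA after LPS.

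Ratios within a library do not depend on the scaling between libraries. Because the 3′ ends of 2 genes may be captured unequally, the ratios are compared between groups and not read as amounts of subunit. The log2 ratio of PSMB9 to PSMB6 reads was -0.13, -0.40, -0.37 and -0.31 in WT and 1.03, 0.98, 0.27 and 0.95 in KO, that is a mean ratio of 0.812 and of 1.75. In HA it was 0.25, 0.00, 0.40 and 0.27, and in SA -0.13, 0.02, -0.06 and -0.02. After LPS the means were -0.17 in WT, 1.14 in KO, 0.49 in HA and -0.44 in SA. KO, HA and SA libraries without LPS, and KO and HA libraries with LPS, were all above the WT libraries. The differences in mean log2 ratio from WT were 1.11 for KO, 0.53 for HA and 0.25 for SA without LPS, and 1.32 for KO and 0.67 for HA with LPS, each at an exact two-sided permutation p of 0.0286, the smallest that 4 against 4 libraries can give, and adjusted over the 30 ratio tests at 0.171. In SA with LPS the ratio was -1.93 in replicate 1 and -0.10 to 0.16 in the others, so the difference from WT was -0.27 with that library and 0.23 without it.

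The ratio of PSMB8 to PSMB5 overlapped between all groups compared. Its mean was -0.28 ± 0.72 in WT and 0.21 ± 1.24 in KO, -1.04 ± 0.77 in HA and -0.73 ± 0.98 in SA (log2, SD, 4 libraries). After LPS it was -0.28 ± 0.69 in WT, 0.60 ± 1.06 in KO, -0.42 ± 0.95 in HA and -0.59 ± 1.97 in SA. The PSMB10 to PSMB7 ratio was between -8.90 and -5.68 over the libraries, with group means from -7.05 to -6.38, so that fewer than 0.02 PSMB10 reads were counted per PSMB7 read in any library. None of the 20 tests of these 2 ratios had an exact permutation p below 0.0571.

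**Figure D4:**
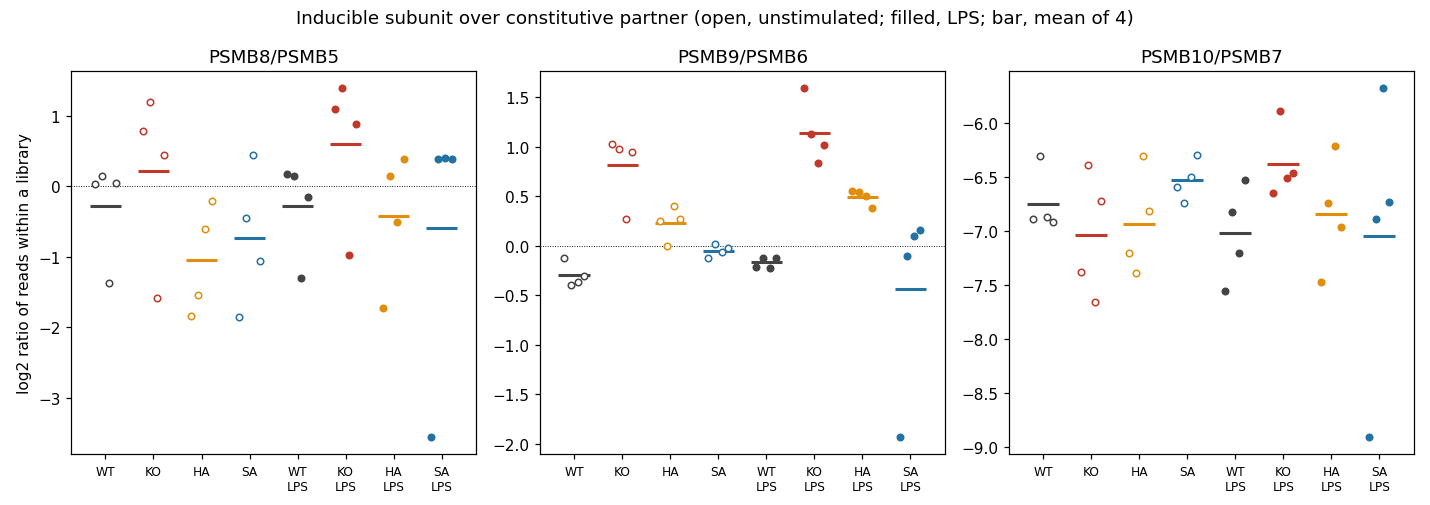
Log2 ratio of reads within each library for the 3 pairs of inducible subunit and constitutive partner over the 8 groups, open for unstimulated and filled for LPS, with a bar at the mean of 4. The PSMB9/PSMB6 ratio lies above 0 in every KO library and below 0 in every WT library, whereas the PSMB8/PSMB5 ratio overlaps between the lines.

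PSMB10 and the aminopeptidases were called in no comparison. PSMB10 was counted with 1 to 52 reads per library, and its normalized counts ran from 12.34 to 49.74 without LPS and from 1.174 to 58.88 with LPS, both extremes with LPS being in SA. ERAP2 was counted with 2 to 32 reads per library and ran from 2.353 to 31.7. The 95% interval in KO against WT was -1.60 to 0.82 for PSMB10 and -0.78 to 1.37 for ERAP2 without LPS, so differences within these bounds are not excluded. ERAP1, which trims the amino end of peptides to the length that MHC class I holds, ranged over 138.6 to 177.5 for WT, 156.2 to 269.2 for KO, 151.6 to 221.3 for HA and 142.8 to 205.1 for SA cells without LPS, and all groups overlapped. Its KO values were 1.22-fold of WT and with LPS 1.19-fold (adjusted p = 6.04e-01 and 6.21e-01, limma).

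None of the 10 genes was called after 3 hours of LPS in any line by limma or limma-voom, with none at an unadjusted p under 0.05. Over all genes, 0.250% were called in WT, 0.572% in KO, 0.403% in HA and 0.492% in SA. In the same order of lines, 200, 673, 592 and 1222 of all 12406 genes had an unadjusted p under 0.05 in limma. The log2 difference of PSMB9 on LPS was 0.13 for WT (95% interval from -0.27 to 0.53), 0.24 for KO (from -0.16 to 0.64), 0.17 for HA (from -0.24 to 0.57) and -0.29 for SA (from -0.69 to 0.11), which became 0.06 without replicate 1 of SA after LPS. For PSME1 the 4 values lay between -0.09 and 0.14. The LPS response of KO, HA or SA was called different from that of WT for none of the genes by limma or limma-voom (background 0.00806%, 0% and 0% called). Again none of them was at an unadjusted p under 0.05, beside 175, 142 and 457 of all 12406 genes in limma. The chemokine CCL4, in contrast, rose with LPS in every line, from a log2 fold change of 4.58 in KO to 5.01 in HA, each past the limit. It had the largest value of 7 early LPS response genes tested. Of these, 2 were called higher with LPS in WT, 3 in KO, 4 in HA and 4 in SA, and their median in WT was 0.92.

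Against SA, KO was higher for PSMB9 by 1.85-fold (adjusted p = 4.61e-03, limma) and for PSME1 by 1.41-fold (adjusted p = 4.89e-03) without LPS, 2 of 10 genes with a background of 2.86% called and 1.61% higher. These calls were kept in 8 and 9 of 18 alternatives. With LPS, PSMB9 was 2.68-fold higher in KO (adjusted p = 1.78e-05, background 2.93% called, 1.77% higher) and 1.83-fold higher in HA (adjusted p = 7.56e-03, background 2.02% called, 1.06% higher), calls kept in 16 and 10 of 18 alternatives. Without replicate 1 of SA after LPS, the log2 difference in PSMB9 fell from 1.42 to 1.07 for KO (adjusted p = 6.57e-07) and from 0.87 to 0.52 for HA (adjusted p = 7.69e-03), and PSME1 was called in KO as well (adjusted p = 3.79e-03), so that 2 genes were called there instead of 1. HA against SA without LPS gave no call by limma or limma-voom (background 1.50% called). At an unadjusted p under 0.05 in limma there were 3 of the 10 genes, beside 2029 of all 12406. KO against HA gave no call in either condition by these tools (background 0.226% and 0.00806% called). There, 2 and 1 of the 10 genes had an unadjusted p under 0.05 in limma, beside 1288 and 1307 of all 12406. The comparisons with WT and with SA share the KO and HA libraries.

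Other proteasome genes gave no call. Of the 11 other 20S subunits, 22 subunits of the 19S cap, 10 assembly factors and other activators and 8 other trimming peptidases, all of them tested, none was called in KO, HA or SA against WT by limma, with or without LPS. In KO against WT after LPS the median log2 fold change was 0.10 for the other 20S subunits, -0.05 for the 19S cap, -0.10 for assembly and -0.02 for the peptidases, beside -0.01 for all genes. In HA without LPS the other 20S subunits had a median of -0.63 beside -0.02 for all genes, in the group with the lowest mean score on the library direction (-0.75), whose part in this was not tested. The largest of the KO values belonged to LAP3, a leucine aminopeptidase, at 1.28 ± 0.43 (adjusted p = 8.01e-02), with a mean of 486 in WT and 1192 in KO.

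Several known regulators of the set were called. Of 8 regulators, 3 were higher in KO than in WT without LPS and 3 with LPS, none lower, with a median log2 fold change of 0.78 and 1.11. In HA 1 and 2 were higher. Over all genes, 1.80% and 2.14% were called higher in KO, and 2.52% and 2.02% were called in either direction in HA. The list median after LPS was 0.48 in HA and 0.52 in SA, where 7 of 8 were above 0 but none was called. IRF1, which binds GAAA repeats, had a mean of 533 ± 55.8 in WT and 959.7 ± 126 in KO (SD, 4 libraries), a log2 fold change of 0.84 ± 0.17 (SE, adjusted p = 2.13e-03, limma). Among the LPS-treated libraries it was above WT by 1.75 in KO (adjusted p = 5.19e-08, limma) and by 1.16 in HA (adjusted p = 7.41e-05). IRF2, a related factor that binds the same motif, was above WT among these libraries by 1.28 in KO and by 0.80 in HA (adjusted p = 1.84e-05 and 8.41e-03, limma). Unlike the 10 genes, IRF1 rose with LPS in every line, from 0.98 in WT (adjusted p = 3.07e-03) to 1.88 in KO (adjusted p = 4.35e-08). JAK2, a cytoplasmic kinase bound to cytokine receptors, was above WT in KO by 0.85 without LPS and by 1.12 with LPS (adjusted p = 1.17e-03 and 2.87e-05, limma). NLRC5, the class I transactivator, was at 0.11 and -0.11 in KO and was not called (adjusted p = 9.21e-01 and 8.85e-01). No regulator was called in SA against WT.

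In the peptide-loading group of 8 genes, TAP1 alone was called in KO, with a log2 fold change of 1.36 ± 0.29 without LPS and 1.56 ± 0.29 with LPS (adjusted p = 3.41e-03 and 6.62e-04, limma), from means of 718.4 and 937.3 in WT to 1920 and 2794 in KO. B2M, the light chain of MHC class I, was at 0.53 and 0.78 (adjusted p = 1.83e-01 and 1.75e-02) and the peptide editor TAPBP at 0.47 and 0.33 (adjusted p = 5.98e-01 and 7.18e-01). TAP2 was at 0.43 and 0.63 with a standard error of 0.69. None of the 8 was called in HA or SA against WT. Some markers of cell type also differed in KO and HA. LYZ was above WT by 1.89 and 2.29 in KO and by 1.62 and 1.88 in HA, without and with LPS (adjusted p = 4.25e-04, 2.84e-05, 3.20e-03 and 7.11e-04, limma). The other 9 monocyte markers did not share one direction. Of all 10, 2 were called higher in KO than in WT without LPS (LYZ and CD14), and 1 higher and 1 lower with LPS (CD33, 0.73 below WT). In HA 1 was higher without LPS, and 1 was higher and 2 lower with LPS (ITGAM, 1.41 below WT, and CD14, 1.37 below). The list medians were 0.29 and 0.23 in KO and 0.10 and 0.13 in HA. PECAM1, an endothelial marker also made by monocytes, was above WT in KO by 0.88 without LPS (adjusted p = 3.12e-03, limma) and was at 0.74 with LPS (adjusted p = 1.41e-02). In HA it was above WT by 0.94 and 0.83 (adjusted p = 2.32e-03 and 8.00e-03). The part of these markers in the results for PSMB9 and PSME1 was not tested.

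**Figure D5:**
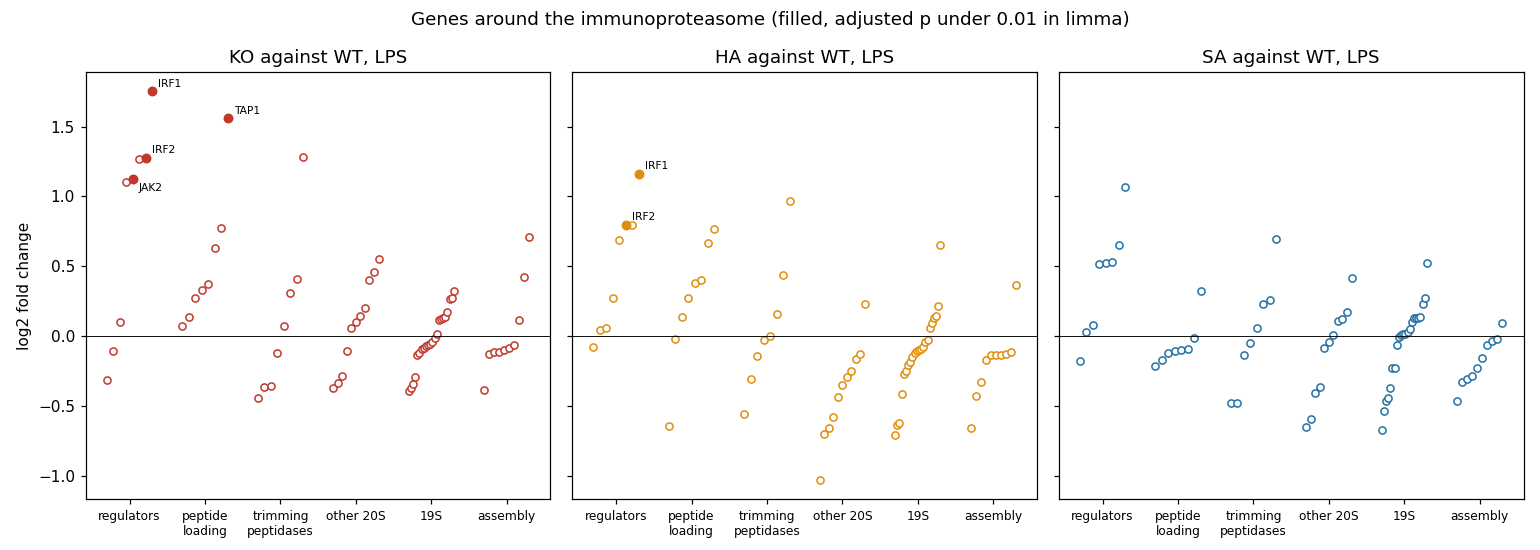
Log2 fold change against WT after LPS in KO, HA and SA cells for 6 lists of genes around the immunoproteasome, with 1 point per gene and filled points past an adjusted p of 0.01. In KO the filled points are IRF1, IRF2, JAK2 and TAP1, in HA they are IRF1 and IRF2, and in SA there are none.

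The genes whose levels over the 32 libraries were most like that of PSMB9, by Pearson's r on the log2 scale, were SERPING1 (r = 0.923), MT2A (0.920), C2 (0.920), SLC15A4 (0.911) and PHF11 (0.902), of 12327 genes compared. Within groups their r ran from 0.656 to 0.882. Those most like PSME2 were MED25 (r = 0.955), DPP7, SIL1, GALNT6 and NAPRT (0.945), with r from 0.944 to 0.970 within groups. PSME2 itself ran against the shared library direction (r = -0.948), with which 3716 of 12406 genes correlated beyond 0.8 in either sense. The part of that direction in the correlations given here was not tested. Among the 10 genes, PSME1 correlated with PSME2 at 0.733 and with PSMB9 at 0.639, while PSMB8 and PSMB9, side by side on chromosome 6, correlated at 0.336. PSMB9 and PSMB5 ran in opposite directions (r = -0.650).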

How the data were processed

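RNA of 32 THP-1 cultures was sequenced with the QuantSeq 3′ kit. The authors' chain was Bbduk for trimming, STAR for alignment to GRCh38, HTSeq-count for gene counts and DESeq2 for size factors and tests, with no version or annotation release given in the sources used here. The deposited values are normalized counts in 8 tables, 1 for each line and treatment, scaled separately for each line. All values (100.000% in every library, within 0.05 reads) were whole multiples of 1 number, so the read counts were recovered and scaled by new median-of-ratios size factors, shared by the 32 libraries. The 92 spike-in rows were left out of 60199.

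Genes with a mean deposited count of at least 10 (12406 of 60107) entered a limma fit (version 3.58.1, R 4.3.3) of log2(count + 1), a scale that understates the change of low genes, with 1 mean per group, a trended eBayes and Benjamini-Hochberg adjustment over all genes in each of 19 comparisons (limit 0.01). Ratios were compared with exact two-sided permutation tests in scipy 1.17.1. The fit was tested on simulated counts drawn independently with the same dispersion for every gene. They held no shared library direction, so that test does not cover the spread seen in these libraries. Libraries held 6504099 to 14750815 reads on genes, and without molecular identifiers intervals cover the spread between libraries or counting error only. Members and gene lists were chosen with earlier results of these data known. The genes named are the 10 members, ACLY, 7 genes of loading and regulation (1 of which is not reported here), at most 3 called genes per list and the 5 most like PSMB9 and PSME2. LAP3, JAK2, CD14, ITGAM, PECAM1 and CD3E were named after their values were seen. Replicate numbers come from the labels, and deviations from group means of same-numbered libraries correlated above 0.1 in all 4 pairs for KO against WT (0.334 to 0.682 without LPS, 0.179 to 0.723 with LPS) and for LPS in WT and in KO, and not in the other comparisons.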

Additional observations from a re-analysis of the deposited data

Results flagged for a closer look

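Of 80 gene and group combinations of 4 libraries, 10 held a library whose gap to its nearest neighbour took more of the range than Dixon's 95% critical value, where chance gives about 1 in 20. Replicate 1 of SA after LPS accounted for 3 of them, all high: PSME2 at 10982 with the others at 3883 to 3950, PSMB6 at 2157 with the others at 1415 to 1470, and ERAP2 at 31.7 with the others at 11.27 to 14.13. Replicate 3 of unstimulated WT was low for PSMB8, at 837.1 with the others at 2309 to 2417, and for ERAP1, at 138.6 with the others at 171.3 to 177.5. ERAP1 was also low in replicate 1 of SA, at 142.8 with the others at 196.5 to 205.1, and high in replicate 2 of WT after LPS, at 224.2 with the others at 162.9 to 172.8, and in replicate 1 of KO after LPS, at 299.5 with the others at 184.2 to 200.9. PSME1 was high in replicate 1 of HA, at 3709 with the others at 2968 to 3049, and PSMB10 in replicate 4 of SA, at 49.74 with the others at 27.51 to 29.88.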

How the results depend on the processing

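The 10 genes in 19 comparisons gave 3622 values under the alternatives, 3422 with the direction of the main value, and none reversed a call. PSMB9 in KO against WT was called in all 18 alternatives in both conditions (adjusted p up to 7.16e-03 and 1.55e-03), and PSME1 in KO against WT with LPS in all 18 (up to 9.74e-03). Counts of genes called changed elsewhere, and apart from settings with fewer libraries the cause was not tested. KO against WT, with 2 in the report, gave 1 without LPS on the deposited scale, with no filter and with only the groups compared. Its highest without LPS was 3, reached under the replicate block with only these, where PSME2 was added. It gave 4 with LPS under that block and under a covariate for the library direction (chosen after seeing the data). Without LPS these settings called 369, 320 (of 27904 with no filter), 179 and 723 of all genes, beside 360 in the main fit. With LPS they called 1333 and 1140, beside 430. HA against WT gave 1 without LPS on the deposited scale and with the covariate, in place of 0. With LPS, in place of 1, it gave 0 with no filter, with only the groups compared and under the replicate block with only these, 2 under the block with all groups and 3 with the covariate. Over all genes, the settings without LPS called 503 and 671, beside 313 in the main fit. Those with LPS, in the order given, called 200, 133, 7, 313 and 680, beside 250. KO against SA without LPS, in place of 2, gave 1 on the deposited scale, and this gene was neither PSMB9 nor PSME1. It gave 0 with no filter, with only the groups compared and under the block with these, and 4 with the covariate. In that order the settings called 1134, 281, 138, 0 and 1028 of all genes, beside 355 in the main fit. The deposited scale moved the median log2 difference of this comparison to -0.357. With LPS, in place of 1, KO against SA gave 3 on the deposited scale and with the covariate. It gave 0 with only the groups compared, blocked or not. Of all 12406 genes, 1192 were called on the deposited scale, only 121 of them higher, beside 363 in the main fit. The covariate called 919, and the groups compared alone called 18 without the block and 0 with it. HA against SA without LPS, in place of 0, gave 1 on the deposited scale and under the block with all groups and 2 with the covariate. With LPS, in place of 1, it gave 0 on the deposited scale, with no filter and with only the groups compared, blocked or not. It gave 2 with LPS under the covariate. Genes called in these settings without LPS were 223, 233 and 585 in all, beside 186 in the main fit. With LPS they were 301, 191, 8 unblocked, 1 blocked and 1202, beside 251. Leaving out 1 library gave 1 to 2 for KO against WT without LPS, 0 to 1 for HA against WT with LPS, 0 to 2 for KO against SA without LPS, 1 to 2 with LPS, and 0 to 1 for HA against SA in each condition. Without replicate 1 of SA after LPS, KO against SA called 2. The replicate block changed no other call in the comparisons the numbers pair. The deposited scale shifts a line against WT by -0.0958 in KO, 0.152 in HA and 0.265 in SA (log2). The differences in the PSMB9/PSMB6 ratio kept their direction in all 10 alternatives in KO and HA against WT, with leave-one-out values of 1.03 to 1.29 and 1.17 to 1.42 in KO without and with LPS. The planned edgeR and DESeq2 fits were not run, and limma-voom, added after seeing the data, stood in for them. PSMB10 and ERAP2 had 1 to 52 and 2 to 32 reads per library, and the part of depth in their spread was not tested.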
